A study of Mus musculus with 6 samples.

Results

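The BK channel is the large-conductance potassium channel that calcium and depolarisation open together, and Kcnma1 encodes the subunit that forms its pore. Its probe sets and those of the auxiliary beta subunit genes Kcnmb1, Kcnmb2 and Kcnmb4 were followed in pancreatic islets of mice given bisphenol A (BPA), a chemical of plastics that can act on oestrogen receptors, or its vehicle. All probe sets whose symbol in the platform annotation was one of these 4 genes were taken, dim ones included. They were 10 of the 45037 probe sets that are not array controls, 5 of them for Kcnma1, 2 each for Kcnmb1 and Kcnmb2, and 1 for Kcnmb4.

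The islets came from OF1 male mice, 10 weeks old, and each group held 3 samples, each on its own Affymetrix 3′ expression array. The labels hold differing accounts of how BPA was given. By the design text it was injected under the skin at 50 µg/kg a time, 100 µg/kg/day in all, over 4 days, and islets were taken 16 hours after the last injection. A treatment of 2 days at the same daily dose stands in the protocol field of the samples, and 1 nM for 48 hours in the source names of the BPA samples. Control mice received 100 µL of the corn oil vehicle, per the design. By their titles the samples are biological replicates, and the design text speaks of 3 independent experiments in each. The number of animals behind a sample is not stated, so p-values measure the spread between these samples.

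BK channels carry a large outward potassium current and so shorten and repolarise the action potentials of excitable cells, among them the beta cells of the islet. Pore-forming subunits assemble into the channel, and the beta subunits, small membrane proteins, set its calcium sensitivity, its kinetics and its inactivation. The Kcnma1 transcript is spliced in many ways, and the variants differ in how readily the channel opens. Microarray probe sets of 1 gene can therefore read different parts or forms of its RNA.

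The arrays had median log2 signals of 6.55 to 6.65. All 6 beta cell markers on the array, both alpha cell markers and all 3 delta cell markers lay above the median signal of 6.60, and so did all 4 acinar markers, which belong to exocrine tissue. The log2 mean of the acinar markers was 14.8, 14.3 and 13.8 in BPA replicates 1 to 3. In control replicates 1 to 3 it was 14.4, 14.7 and 12.9. The part of exocrine tissue in the BK channel values was not tested. The replicate 3 arrays stood apart from the rest. The first principal component of all probe sets, which held 52.6% of the variance, scored BPA replicate 3 at 40.98 and control replicate 3 at 57.8, while the other BPA arrays scored -44.3 and -37.4 and the other controls -14.5 and -2.63. The differences of the BK channel probe sets are therefore also given without these arrays. In whole islets, fewer cells of a type and less RNA per cell cannot be told apart.

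None of the BK channel probe sets differed between BPA and control past the test. In limma's moderated test over all 45037 probe sets, 0 of the 10 had an adjusted p under 0.05, and 0% of all probe sets did. At an unadjusted p under 0.05 the count was again 0 of 10, where 5.87% of all probe sets (2643) lay. The arrays of the groups overlapped for each of the 10, whereas 11.5% of all probe sets showed no overlap. Of the 10 probe sets, 6 had a mean above the median signal of the table and 4 lay below it.

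The 5 probe sets of Kcnma1 fell into 3 that each ranged over no more than 0.86 (log2) and 2 that ranged more widely. The range of 0.86 was that of 1424848_at, and the other 2 of the 3 ranged over 0.34 each. The annotation names 1424848_at and 1425987_a_at by mRNA records of the channel and 1428948_at by an expressed sequence tag (EST), a single-pass read of a cDNA. It names 1440728_at and 1457018_at by ESTs of a further series, with the accession prefix BB. Both Kcnmb1 probe sets carry this prefix too, as do 14.8% of all probe sets. The median within-group SD was 0.163 over probe sets with the prefix and 0.156 over the others (log2). Signals of different probe sets are not comparable in height, so only their changes from array to array are set against one another.

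The probe set 1428948_at read 9.41, 9.64 and 9.30 in BPA replicates 1 to 3, against 9.40, 9.47 and 9.57 in control replicates 1 to 3 (log2 signal). All 6 values lay within 0.34 of each other and the groups overlapped. The means were 9.45 ± 0.17 over the BPA arrays and 9.48 ± 0.09 over the control arrays (SD, 3 arrays each), a difference of -0.027 ± 0.132 (log2, SE) with an adjusted p of 0.980 in limma. The 95% interval of the difference ran from -0.34 to 0.28.

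The probe set 1425987_a_at, whose suffix marks probes shared by alternative transcripts of a gene, read 8.11, 8.07 and 8.01 after BPA and 7.90, 7.99 and 8.24 in controls. The BPA values lay inside the control range. The difference was 0.016 ± 0.130 (log2, SE; interval -0.29 to 0.32), with an adjusted p of 0.987 in limma.

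The probe set 1424848_at read 8.75, 8.77 and 8.54 after BPA, against 9.21, 8.35 and 8.57 in controls. The controls spread over 0.86 and enclosed all BPA values. The difference was -0.023 ± 0.226 (log2, SE; interval -0.56 to 0.51), with an adjusted p of 0.991 in limma.

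The probe set 1440728_at read 8.19, 6.96 and 8.75 after BPA and 7.97, 9.04 and 9.58 in controls. BPA replicate 2 was lowest and control replicate 3 highest, and control replicate 1 lay below 2 of the BPA arrays. The means were 7.97 ± 0.91 over the BPA arrays and 8.86 ± 0.82 over the control arrays (SD, 3 arrays each), so that the BPA signal was 0.54 times that of control. The difference of -0.89 ± 0.54 (log2, SE) had an adjusted p of 0.867 in limma, and its interval ran from -2.18 to 0.39.

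The probe set 1457018_at lay below the median signal of the table. It read 5.26, 3.76 and 7.30 after BPA and 5.67, 6.33 and 7.75 in controls. BPA replicate 2 was again lowest and control replicate 3 highest, with BPA replicate 3 next to it. The range over the 6 arrays was 3.99, a factor of 15.9, with the dim value of 3.76 in BPA replicate 2 as its low end. No detection calls were at hand, so whether that value stood above background is not known. The means were 5.44 ± 1.78 over the BPA arrays and 6.58 ± 1.06 over the control arrays (SD, 3 arrays each), a difference of -1.14 ± 0.91 (log2, SE; interval -3.28 to 1.00) with an adjusted p of 0.884 in limma.

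**Figure D1:**
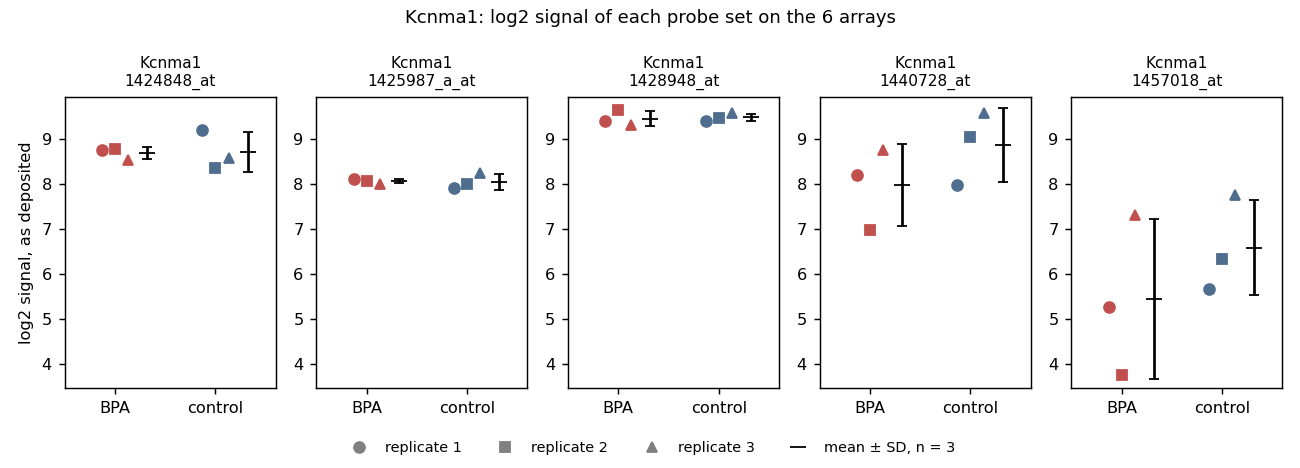
Log2 signal of the 5 Kcnma1 probe sets on 3 BPA and 3 control arrays, 1 panel per probe set, with each array as a symbol and the mean ± SD (n = 3) beside each group. The left 3 panels show values that stay within 0.86 of each other, while 1440728_at spans 2.61 and 1457018_at 3.99, with the groups overlapping in every panel.

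The wide range of these 2 probe sets was unusual for their signal. The pooled within-group SD of 1457018_at was 1.47, higher than that of 99.9% of the 7406 probe sets with a mean within 0.5 of its own. That of 1440728_at was 0.87, higher than that of 98.2% of 4940 such probe sets. For 1425987_a_at and 1428948_at the SD was 0.13 and 0.14, near the 25.3rd and 26.9th percentile, and for 1424848_at it was 0.33, at the 79.9th percentile.

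The differences of both wide probe sets rested on few arrays. Without BPA replicate 2 the difference of 1440728_at was -0.39 and that of 1457018_at -0.30 (log2). Without control replicate 3 they were -0.53 and -0.56. Without BPA replicate 3 they were -1.28 and -2.07, and without control replicate 1 they were -1.34 and -1.60. With both replicate 3 arrays left out they were -0.92 and -1.49, with adjusted p of 0.554 and 0.340 in limma. The sign was negative each time, and no adjusted p passed.

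Whether the Kcnma1 probe sets responded differently from one another was tested within arrays. On each array the mean of the gene's other probe sets was subtracted from a probe set, and BPA was compared with control by limma on these deviations for all 25762 probe sets of the 9010 genes with 2 or more. For 1440728_at the deviation differed by -0.60 ± 0.37 (log2, SE) and for 1457018_at by -0.91 ± 0.78, with adjusted p of 0.828 and 0.871 in limma. The deviations of 1425987_a_at, 1424848_at and 1428948_at differed by 0.54 ± 0.30, 0.49 ± 0.49 and 0.48 ± 0.38, with adjusted p of 0.810, 0.883 and 0.863. The Kcnma1 deviations share values with one another, so the positive signs of the last 3 follow in part from the negative ones.

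None of the 5 deviations passed, and 0% of the deviations over all genes did. At an unadjusted p under 0.05 there were 0 of 5, against 6.48% of all deviations. The test limma offers for this purpose, diffSplice, gave Kcnma1 an adjusted p of 1.00 over its 5 probe sets and called 1 gene of 9010 (0.0111%), which was not Kcnma1. Among the 10 pairs of Kcnma1 probe sets, an exact two-sided permutation test of the within-array difference gave p of 0.3 to 1, where 3 against 3 arrays cannot go below 0.1. The lowest was that of 1425987_a_at and 1440728_at, whose differences lay 0.91 apart (p = 0.3, or 0.8 adjusted over the 10 pairs, exact permutation). No pair had groups without overlap.

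**Figure D2:**
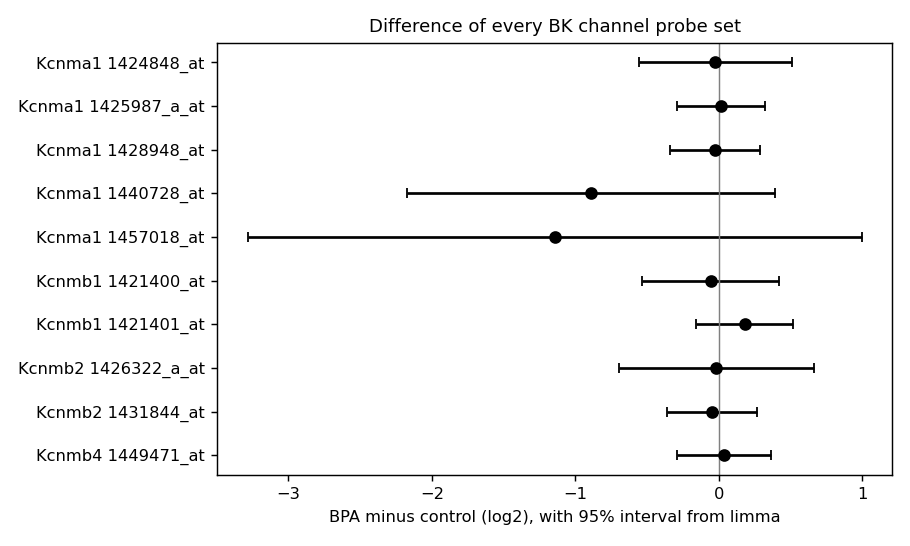
BPA minus control (log2) for each of the 10 BK channel probe sets, with the 95% interval from limma as bars and a vertical line at 0. Every interval takes in 0, and those of the Kcnma1 probe sets 1440728_at (-2.18 to 0.39) and 1457018_at (-3.28 to 1.00) are the widest of the 10.

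The 2 wide probe sets moved together from array to array. Each set on its own mean, both were lowest in BPA replicate 2 and highest in control replicate 3, and both were above their mean in BPA replicate 3 and control replicate 2. Pearson's r between them over the 6 arrays was 0.94, given as a description, while that of the other 9 pairs of Kcnma1 probe sets lay between -0.57 and 0.52. The points share arrays and the scaling of each array.

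The mean of the 9160 probe sets with no gene in the annotation ran in nearly the same order. It was 5.72, 5.70 and 5.91 in BPA replicates 1 to 3 and 5.80, 5.88 and 5.91 in control replicates 1 to 3. BPA replicate 2 was lowest and BPA replicate 1 next, and both replicate 3 arrays were highest, the order of 1457018_at but for the top pair. Its difference between the groups was -0.084 (log2), with p = 0.4 in a two-sided exact permutation test over the 6 arrays. The 3′ minus 5′ signal of the actin and Gapdh control transcripts, a measure of how complete the RNA copies are, was 2.60 to 2.99 in BPA arrays and 3.42 to 3.79 in controls (log2). The part of either measure in the Kcnma1 values was not tested.

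**Figure D3:**
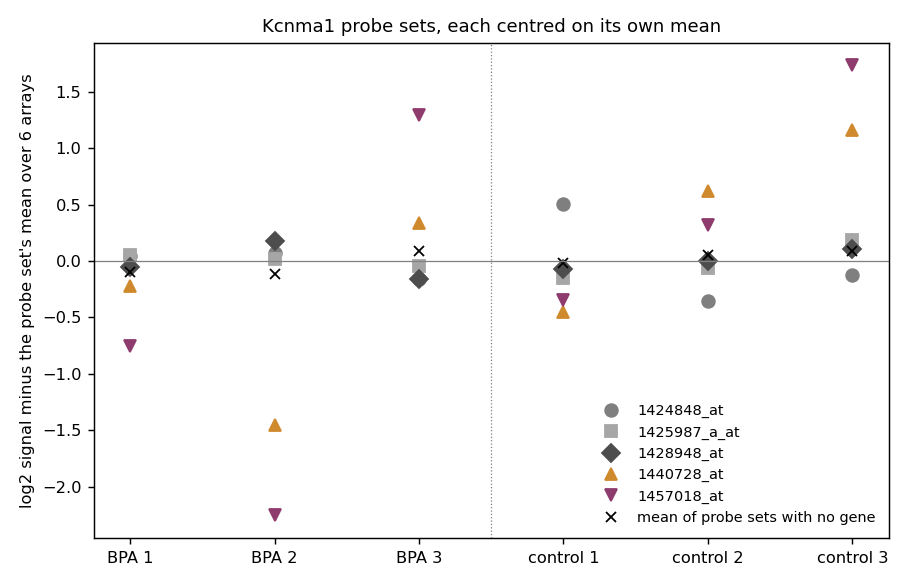
Log2 signal of the 5 Kcnma1 probe sets and the mean of the 9160 probe sets with no gene, each minus its own mean over 6 arrays, with the BPA arrays on the left and the controls on the right. The triangles of 1440728_at and 1457018_at lie lowest in BPA replicate 2 and highest in control replicate 3, while the grey symbols of the other 3 stay near 0 apart from 1424848_at in control replicates 1 and 2.

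Genes whose pattern was most like that of a Kcnma1 probe set were sought among 19382 probe sets with 1 gene and a mean above the median signal. For 1457018_at they were Dlst (0.99), which encodes a subunit of the oxoglutarate dehydrogenase complex, Ccnt2 (0.99), a cyclin of the elongation factor P-TEFb, and Vti1a (0.99), a SNARE of vesicle traffic, by Pearson's r over 6 arrays. 219 of the candidate probe sets exceeded 0.95 for this one. For 1440728_at they were Tcaf1, Myef2 and Sfswap, with r of 0.98 to 0.99, and 50 exceeded 0.95. For 1428948_at they were Ccdc120, the orphan oestrogen-related receptor gene Esrrg and Tshz2, with r of 0.99 each, and 38 exceeded 0.95. For 1425987_a_at they were Gadd45b at 0.995, Zfp14 at 0.98 and Ccdc77 at 0.97, with 11 over 0.95. For 1424848_at they were 1700023A20Rik, Hlx and Tmem179b, at 0.98 to 0.99, with 34 over 0.95. No gene was shared between the 5 lists. With 6 arrays and so many candidates, high values of r are common.

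The beta subunit genes did not differ past the test either. Of their 5 probe sets 2 had a positive and 3 a negative difference, all between -0.056 and 0.180 (log2). Kcnmb2 encodes the beta subunit whose N-terminal end plugs the pore and makes BK currents inactivate. Its probe set 1431844_at read 11.04, 11.39 and 11.44 after BPA and 11.27, 11.43 and 11.31 in controls. All values but that of BPA replicate 1 lay close together, and the difference was -0.047 ± 0.134 (log2, SE; interval -0.36 to 0.27), with an adjusted p of 0.964 in limma.

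The other Kcnmb2 probe set, 1426322_a_at, read 10.14, 9.98 and 9.23 after BPA and 10.01, 10.03 and 9.36 in controls. In both groups replicate 3 was the lowest, and the other 4 arrays lay between 9.98 and 10.14. The difference was -0.016 ± 0.287 (log2, SE; interval -0.69 to 0.66), with an adjusted p of 0.994 in limma, and 0.042 without both replicate 3 arrays. Its pooled SD of 0.44 exceeded that of 92.9% of 3511 probe sets of similar signal. Set against its partner within arrays, it differed by 0.031 ± 0.331 between the groups (log2, SE; adjusted p of 0.993 in limma).

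Kcnmb1 encodes the beta subunit of smooth muscle, where it raises the calcium sensitivity of BK and helps vessels to relax. Both its probe sets lay below the median signal. The probe set 1421401_at read 6.53, 6.18 and 6.39 after BPA and 5.97, 6.24 and 6.34 in controls, with BPA replicate 2 below 2 of the controls. The difference was 0.180 ± 0.144 (log2, SE; interval -0.16 to 0.52), with an adjusted p of 0.884 in limma. Leaving out BPA replicate 1 gave 0.098, leaving out BPA replicate 2 gave 0.272 and leaving out control replicate 1 gave 0.072. The probe set 1421400_at read 5.04, 4.88 and 5.65 after BPA, against 5.10, 5.24 and 5.39 in controls, where the BPA arrays enclosed all controls. Its difference was -0.056 ± 0.202 (log2, SE; interval -0.53 to 0.42), with an adjusted p of 0.973 in limma.

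Smooth muscle markers were also compared, because Kcnmb1 is known from that tissue. Of 9 markers 8 had a positive difference, beside 60.3% of all genes, and 0 passed the test, with a median difference of 0.21 (log2). At an unadjusted p under 0.05, 2 of the 9 had a positive difference, beside 3.80% of all genes. Named after their values were seen, they were Cnn1, which encodes calponin, at 0.30 ± 0.10 and Tagln, which encodes transgelin, at 0.40 ± 0.16 (log2, SE). Their adjusted p were 0.825 and 0.837 in limma. For both the groups did not overlap, as was so for 11.5% of all probe sets, and Cnn1 lay below the median signal. The mean log2 level of all 9 markers was 6.75 to 7.16 in BPA arrays and 6.61 to 6.90 in controls. Myh11, the myosin that defines smooth muscle, read 6.94, 7.33 and 7.91 after BPA and 6.91, 6.78 and 7.85 in controls, and 4 of the 9 markers lay above the median signal. The part of smooth muscle cells in the Kcnmb1 values was not tested.

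Kcnmb4 encodes the beta subunit of nerve cells, which slows the gating of BK and makes it resistant to the toxin iberiotoxin. Its only probe set, 1449471_at, lay below the median signal and read 6.38, 6.16 and 6.35 after BPA and 6.29, 6.45 and 6.03 in controls. The BPA values lay inside the control range. The difference was 0.035 ± 0.138 (log2, SE; interval -0.29 to 0.36), with an adjusted p of 0.974 in limma. Of the nerve and glia markers, 6 of 6 had a positive difference, beside 60.3% of all genes, and 0 passed the test. Their mean levels were 7.92 to 8.18 in BPA arrays and 7.33 to 7.91 in controls, with control replicate 3 the lowest. A positive difference was also found for 4 of 4 acinar, 6 of 7 stellate cell and fibroblast and 4 of 6 immune markers. It was found for 4 of 6 beta cell, 2 of 3 delta cell, 3 of 6 endothelial, 2 of 4 duct and 0 of 2 alpha cell markers. The part of nerve and glia in the Kcnmb4 values was not tested.

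**Figure D4:**
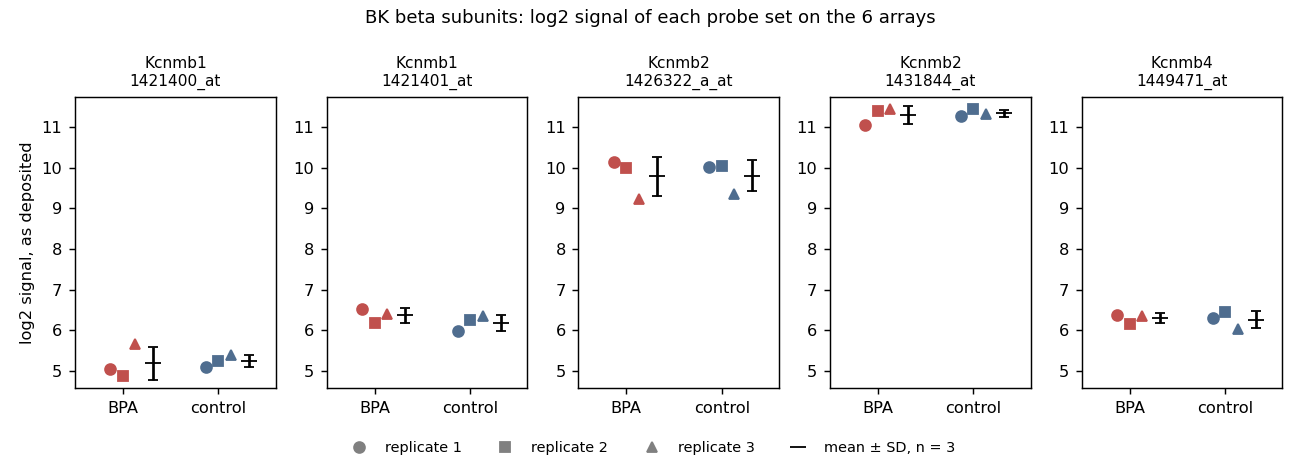
Log2 signal of the 5 beta subunit probe sets on 3 BPA and 3 control arrays, 1 panel per probe set, with each array as a symbol and the mean ± SD (n = 3) beside each group. The groups overlap in every panel, and the replicate 3 arrays are the lowest of both groups for Kcnmb2 1426322_a_at.

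Genes that work with BK were followed by 1 probe set each, the one with the highest mean. Of 68 such genes 59 were on the array, and 0 passed the test. At an unadjusted p under 0.05, 1 of the 59 had a positive and 0 a negative difference, against 3.80% and 1.14% of all 18193 genes. The median difference of the 59 was 0.039 (log2), beside 0.036 over all genes.

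The closest relatives of Kcnma1 are the Slo family channels, of which Kcnt1 and Kcnt2 respond to sodium and Kcnu1 belongs to sperm. They differed by 0.079 ± 0.167, 0.125 ± 0.134 and 0.041 ± 0.142 (log2, SE), with adjusted p of 0.905 to 0.971 in limma. The gamma subunits, leucine-rich repeat proteins that let BK open at lower voltage, had 3 of 4 genes on the array. Lrrc26 differed by 0.039 ± 0.143, Lrrc52 by 0.062 ± 0.124 and Lrrc38 by 0.146 ± 0.186, with adjusted p of 0.918 to 0.973 in limma. The SK and IK channels, which calcium opens through calmodulin and without voltage, differed by 0.039 ± 0.174 for Kcnn1, -0.037 ± 0.173 for Kcnn2, -0.070 ± 0.142 for Kcnn3 and -0.043 ± 0.199 for Kcnn4. None of these 10 genes passed, and of them only Kcnu1, Lrrc38 and Kcnn4 lay above the median signal.

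Calcium entry and release supply the calcium that opens BK. Of 14 voltage-gated calcium channel subunit genes 6 had a positive and 8 a negative difference, with a median difference of -0.040 (log2). Cacna1e, the R-type channel gene, differed by 0.27 ± 0.21 and the P/Q-type gene Cacna1a by -0.44 ± 0.48, with adjusted p of 0.881 and 0.907 in limma. Cacna1a read 7.21, 7.55 and 8.81 after BPA and 7.74, 8.07 and 9.06 in controls, so that its lowest 2 arrays were BPA replicates 1 and 2 and its highest 2 the replicate 3 arrays. Of 5 calcium release channel genes 4 had a positive difference, beside 60.3% of all genes. The ryanodine receptor gene Ryr2 differed by 0.15 ± 0.11 and the IP3 receptor gene Itpr3 by 0.16 ± 0.16 (log2, SE), with adjusted p of 0.875 and 0.899 in limma. Cacna1e and Ryr2 lay below the median signal.

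Of 20 genes of delayed rectifier and A-type potassium channels, which repolarise cells beside BK, 18 had a positive difference, where 60.3% of all genes did, and the median was 0.072 (log2). Only 8 of the 20 lay above the median signal, and the median difference of these 8 was 0.039. The 2 of the 20 with the smallest p were Kcnc4 at 0.18 ± 0.10 and Kcnd1 at 0.25 ± 0.16 (SE), with adjusted p of 0.866 and 0.867 in limma. Of 10 genes known to act on BK 4 had a positive and 6 a negative difference, with a median of -0.011 (log2). Hnrnpl encodes a splicing factor that represses an alternative exon of Kcnma1. It was the 1 gene of the 10 with an unadjusted p under 0.05, where 3.80% of all genes were higher at that p. It read 8.29, 8.62 and 8.53 after BPA and 7.70, 8.02 and 8.29 in controls, with control replicate 3 as high as BPA replicate 1. The difference was 0.47 ± 0.18 (log2, SE) with an adjusted p of 0.837 in limma. Hmox2, the haem oxygenase that binds BK, differed by 0.23 ± 0.11 (adjusted p of 0.852).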

How the data were processed

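Biotin-labelled cRNA was prepared with 1 µg total RNA as input, per the labels' protocols. The authors deposited log2 signals, 1 for each probe set on each array. Per the submitters' processing notes, MAS5 was used, with no version stated. How the arrays were scaled is not stated, and the table used has no detection calls, which limits dim probe sets. Values were used as deposited, and array controls (64) were set aside. Genes were named from the platform annotation (34945 probe sets with 1 gene, 932 with several, 9160 with none).

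BPA was compared with control in limma 3.58.1 under R 4.3.3 (lmFit and trended eBayes; two-sided p adjusted by Benjamini-Hochberg, threshold 0.05), with no filter, so that dim probe sets entered too. Named genes were all probe sets of the 4 genes, all Slo family, gamma subunit, SK and IK genes, the 2 of each other list with the smallest p, and the 3 most alike genes of each Kcnma1 probe set. The members and lists were chosen with earlier results of these data known. The fits were tested on simulated data. The main fit did not pair samples by replicate number. Deviations from group means correlated at 0.40, 0.066 and 0.64 between same-numbered arrays. Between BPA and control arrays of differing number they correlated at -0.56 to 0.37. Alternatives were other filters, scalings and eBayes settings, a replicate block, arrays left out, and other within-gene tests. Figures were drawn with matplotlib 3.10.9. Precision is limited by the number of arrays.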

Additional observations from a re-analysis of the deposited data

How the results depend on the processing

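The counts of 0 called BK channel probe sets and 0 called over all probe sets held in 15 of 15 alternatives (lowest 0 and highest 0 with each array left out), including the replicate block, which gave 0 and 0. Over all genes the within-gene test called 0 probe sets, and diffSplice called 5, none of them of Kcnma1. The differences of 1440728_at and 1457018_at were negative in each of the 10 alternatives that can move them (other scalings, arrays left out), with lowest adjusted p of 0.437 and 0.340. Under the replicate block they had adjusted p of 0.477 and 0.415. The block, filters and eBayes settings cannot move these mean differences (-0.89 and -1.14). Probe sets with differences near 0 changed sign without passing. Without both replicate 3 arrays Kcnma1 1428948_at was 0.093, Kcnmb2 1426322_a_at 0.042 and Kcnmb4 1449471_at -0.106. Others kept their sign there, with Kcnma1 1424848_at at -0.017, 1425987_a_at at 0.142 and Kcnmb2 1431844_at at -0.137. Kcnmb1 1421400_at was -0.214 and 1421401_at 0.247. Under median centring Kcnmb2 1426322_a_at was 0.0059, and under cyclic loess Kcnma1 1425987_a_at was -0.026. The within-gene deviation of 1428948_at was -0.0040 with the filter at the 75th percentile, which left 2 Kcnma1 probe sets. With each array left out, 1424848_at ran from -0.204 to 0.226, 1425987_a_at from -0.055 to 0.114, 1428948_at from -0.122 to 0.047, Kcnmb1 1421401_at from 0.072 to 0.272, Kcnmb1 1421400_at from -0.287 to 0.10, Kcnmb2 1426322_a_at from -0.236 to 0.262, Kcnmb2 1431844_at from -0.123 to 0.078 and Kcnmb4 1449471_at from -0.079 to 0.131. Of the 10 probe sets, 4 lay below the filter at the median and have no value there.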

Other observations

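The array also holds probe sets of Kcnmb4os1 and Kcnmb4os2, long noncoding RNA genes that neighbour Kcnmb4. These genes were added after their values were seen. Kcnmb4os1 read 4.35, 4.49 and 3.89 after BPA and 4.36, 3.94 and 4.14 in controls, and Kcnmb4os2 read 4.40, 4.56 and 4.81 after BPA and 4.58, 4.44 and 4.56 in controls (log2 signal). Both lay below the median signal, and in both the groups overlapped. The differences were 0.098 ± 0.176 and 0.062 ± 0.117 (log2, SE, limma).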
